A study of Rattus norvegicus with 12 samples.

Results

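Thyroid hormone reaches a brain cell through transporters, is activated there by a deiodinase and acts in the nucleus. The 8 genes described here stand for those steps and were taken by symbol from the 17494 genes of the count table. They were *Slco1c1*, *Dio2*, *Thra*, *Thrb*, *Ncor1*, *Klf9*, *Hr* and *Nrgn*. *Thra* had been selected by the study on its own difference between the 2 treatment groups, so its treatment values are given as a description without a test. The other 7 were chosen for their roles in the pathway, with earlier results of these data known.

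The samples were brains of male wild-type Long-Evans rats, named as hippocampus in the methods of the study. All 12 rats were blast-exposed, with 3 exposures over 3 consecutive days at 10 weeks of age, and were sacrificed 29 weeks later. The 6 blast-boldine rats received chow with boldine, an alkaloid of the boldo tree, at 500 mg/kg from week 2 after the blast, and the 6 blast-control rats received the same chow without it. No unexposed rats were sequenced, so a difference between the groups is one of diet among blast-exposed animals. Each library was made from the total RNA of 1 rat.

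The prohormone T4 crosses the blood-brain barrier partly through SLCO1C1 (also called OATP1C1), and DIO2, found mainly in astrocytes, converts T4 to the active hormone T3. T3 binds the nuclear receptors TRα, encoded by *Thra*, and TRβ, encoded by *Thrb*, which sit on DNA with RXR partners. Without T3 the receptors recruit corepressors such as NCOR1, and with T3 they exchange them for coactivators. *Klf9*, *Hr* and *Nrgn* are genes long used as readouts of T3 in brain. Bulk RNA cannot tell fewer cells of a type from less RNA per cell. The counts are per gene and do not tell transcript forms apart. A count of *Thra* therefore need not stand for a form that binds T3.

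The starts of both receptor genes are shown because the receptors carry the comparison of levels given further on. The 250 bases before each start are from RefSeq for build GRCr8, on the gene's own strand. *Thra* has 2 listed starts, and the first is shown, at chr10:84197891-84198140 (+). *Thrb* is at chr15:10461447-10461696 (−). Capitals mark GC boxes, spelled GGGCGG on either strand, and overlapping boxes merge into one run.
Thra: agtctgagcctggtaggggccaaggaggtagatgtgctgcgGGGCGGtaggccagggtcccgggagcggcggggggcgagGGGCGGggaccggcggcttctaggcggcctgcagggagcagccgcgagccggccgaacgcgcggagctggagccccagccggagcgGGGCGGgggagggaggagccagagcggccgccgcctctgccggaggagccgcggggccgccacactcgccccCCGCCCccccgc
Thrb: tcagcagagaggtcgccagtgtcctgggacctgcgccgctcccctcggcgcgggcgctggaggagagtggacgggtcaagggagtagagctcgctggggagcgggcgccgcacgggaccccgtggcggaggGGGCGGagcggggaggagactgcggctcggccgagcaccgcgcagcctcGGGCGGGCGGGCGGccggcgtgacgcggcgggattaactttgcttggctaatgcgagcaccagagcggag

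Both windows were GC-rich, with 79.6% G or C in *Thra* and 74% in *Thrb*, against a median of 51.2% over 33469 windows of the same length. Each held 4 GC boxes. A GC box was present in 4 of the 7 windows listed for 6 of the 8 genes, and in 30.5% of all windows. *Ncor1* had 3 boxes and *Nrgn* had 1, while the windows of *Klf9* and *Dio2* and the second start of *Thra* had 0. The receptor half-site AGGTCA, searched on both strands, was in 0 of the 7 windows and in 14.1% of all windows. A match of letters is a description and not a binding site, and its absence covers only this window.

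Library depth bears on every value below. Total counts lay between 10148474 and 40850106 in 11 libraries, but blast-control rat 6 had 74008. In rat 6 1 count was worth 15.8 CPM, the counts scaled to a common library size,, and 3 counts, taken here as the limit that a count of 0 allows, were 47.5 CPM. In the other libraries 3 counts were at most 0.307 CPM. Such limits cover counting error only. The treatment difference of each of the 8 genes is therefore given with and without rat 6, and levels per length, slopes and nearest genes without it.

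The other 11 libraries fell into sets that do not follow treatment. The library names carry suffixes from S1 to S6, each found on 2 libraries, and 4 assignments to a pair of sets use each suffix once in rising order. The assignment that accounted for most of the first principal component (95.1%, against 1.53% for treatment) put rats 1, 7, 9, 20, 32 and 35 in set A and rats 4, 5, 6, 12, 17 and 19 in set B. That component held 66.0% of the variance of 12529 genes. What a set stands for is not in the labels. Because the sets were taken from the expression values, differences between them were not tested.

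Cell type markers were read in each library. No other brain region was sequenced, so they do not tell hippocampus from other parts of the brain. All 6 markers of excitatory hippocampal neurons were detected in the 11 deeper libraries. Their summed level was 2451 to 4909 CPM in blast-controls and 2728 to 3605 CPM in blast-boldine rats, and the highest sum was that of rat 4. All 6 astrocyte markers were likewise above 0 and summed to 3734 to 5313 CPM. Markers of choroid plexus, a tissue outside the hippocampus that makes transthyretin, summed to 683 to 1218 CPM in rats 1, 7, 12, 17 and 32 and to at most 52.3 CPM in the others. In set A microglial markers summed to 311 to 353 CPM and endothelial markers to 106 to 159 CPM, and in set B without rat 6 to 132 to 216 CPM and 236 to 319 CPM. The part of these differences in the results below was not tested.

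**Figure D1:**
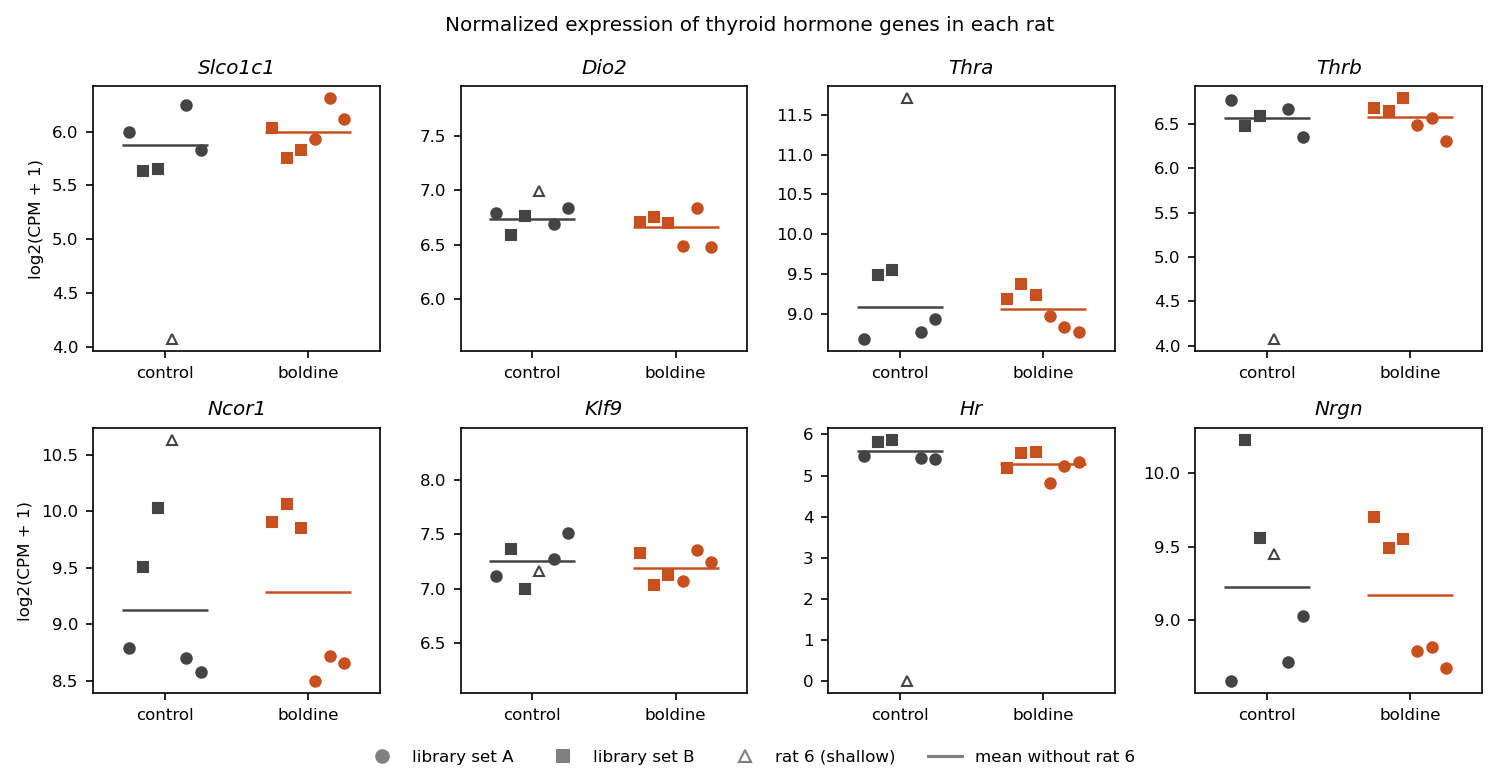
Normalized expression of the 8 genes in each of the 12 rats on a log2(CPM + 1) axis, with circles for library set A, squares for set B, an open triangle for rat 6 and lines for the group means without rat 6. The control and boldine means lie close together for most genes, while Thra, Ncor1 and Nrgn separate by set and rat 6 lies apart for Slco1c1, Thra, Thrb and Hr.

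Compared per length, the receptors and their partners covered a wide range of levels. Mean CPM per kilobase of exon over the 11 rats without rat 6 was 455 ± 183 (SD, n = 11) for *Nrgn*, 179 ± 38.8 for *Thra*, 78.2 ± 35.6 for *Ncor1* and 54.9 ± 6.29 for *Klf9*. It was 22.4 ± 3.62 for *Slco1c1*, 16.4 ± 1.40 for *Dio2*, 15.2 ± 1.66 for *Thrb* and 7.60 ± 1.52 for *Hr*. Each gene lay above the next in all 11 rats, except that *Ncor1* was above *Klf9* in 6 of 11 and *Dio2* above *Thrb* in 9 of 11. *Thra* exceeded *Thrb* in every one of the 11 rats, by 7.67-fold to 16.5-fold with a median of 11.5-fold.

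*Slco1c1* (chromosome 4 of mRatBN7.2, 174466631 to 174513290, plus strand) is the T4 transporter of brain endothelium and choroid plexus. Its lowest, median and highest levels were 52.9, 62.2 and 78.4 CPM in blast-boldine rats and 15.8, 52.7 and 74.8 CPM in blast-controls, where the lowest was 1 count in rat 6. The groups overlapped. Without rat 6 the means were 63.3 ± 9.28 CPM with boldine (SD, n = 6) and 58.3 ± 10.8 CPM for controls (SD, n = 5). On the log2 scale the difference was 0.17 (SE 0.18) with all rats and 0.11 (SE 0.14) without rat 6. The exact two-sided permutation test gave p = 0.193 for *Slco1c1* with all rats and p = 0.385 without rat 6. Among the rats with high choroid plexus markers *Slco1c1* measured 52.9 to 78.4 CPM, and among the other deeper libraries 48.8 to 68.5 CPM.

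*Dio2* (chromosome 6, 109665523 to 109679809, minus strand) had the smallest SD relative to its mean of the 8 genes over the 11 deeper libraries. Its lowest, median and highest levels were 88.6, 103 and 114 CPM in blast-boldine rats and 95.3, 109 and 127 CPM in blast-controls. On the log2 scale *Dio2* differed by −0.09 (SE 0.11) with all rats and −0.07 (SE 0.10) without rat 6, less than the spread between rats. The exact permutation p was 0.186, and 0.361 without rat 6. With the library set as covariate and without rat 6 the 95% confidence interval of the log2 fold change was −0.26 to 0.10.

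*Thra* (chromosome 10, 83701885 to 83729408, plus strand) measured 584 (rat 12), 666 (rat 17), 603 (rat 19), 504 (rat 20), 459 (rat 32) and 440.3 CPM (rat 35) in blast-boldine rats. In blast-controls it measured 411 (rat 1), 718 (rat 4), 750.0 (rat 5), 439.7 (rat 7) and 490.2 CPM (rat 9), and 3341 CPM, from 211 counts, in rat 6. Rat 6 was thus far above every other rat. The remaining rats overlapped between treatments and separated by library set instead, with set A at 411 to 504 CPM and set B at 584 to 750.0 CPM. On the log2 scale boldine rats differed by −0.85 (SE 0.47) when rat 6 was kept, −0.05 (SE 0.19) without it and −0.08 (SE 0.08) without it and with the set as covariate.

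Within set A the boldine rats had *Thra* 4.70% above the controls and within set B without rat 6 they had it 16.0% below, as differences of mean log2 CPM. The direction of the *Thra* difference therefore was not shared by both sets. The 3' end of *Thra* shares 263 exon bases with *Nr1d1*, a circadian repressor gene on the opposite strand, and the counting was by strand. *Nr1d1* measured 44.5 to 72.9 CPM in the 11 deeper libraries, and 63.3 CPM in rat 6.

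*Thrb* (chromosome 15, 7685180 to 8030688, minus strand) gave nearly the same level in both groups. Its lowest, median and highest levels were 78.1, 96.5 and 109.9 CPM in blast-boldine rats and 15.8, 91.9 and 109 CPM in blast-controls, with 1 count in rat 6. Without rat 6 the means were 95.2 ± 11.02 CPM with boldine (SD, n = 6) and 94.8 ± 10.8 CPM for controls (SD, n = 5). *Thrb* had a log2 fold change of 0.08 (SE 0.19) with all rats, 0.00 (SE 0.12) without rat 6 and −0.02 (SE 0.10) when the set was added, where the 95% interval ran from −0.23 to 0.19. The exact permutation p for *Thrb* was 0.474, and 0.946 without rat 6.

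*Ncor1* (chromosome 10, 46999536 to 47141032, minus strand) encodes the scaffold of the corepressor complex that unliganded receptors recruit. Its lowest, median and highest levels were 359.8, 671 and 1071 CPM in blast-boldine rats and 382, 585 and 1583 CPM in blast-controls, the highest from 100 counts in rat 6. The groups overlapped throughout and the difference changed sign with rat 6, at −0.11 (SE 0.40) with it and 0.19 (SE 0.38) without it on the log2 scale. The set term reduced the SE to 0.10 and the difference to 0.02. The exact permutation p for *Ncor1* was 0.844 with all rats and 0.716 without rat 6.

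*Klf9* (chromosome 1, 220700108 to 220725029, plus strand), a zinc finger transcription factor gene induced by T3 and by glucocorticoids, was level across rats. Its lowest, median and highest levels were 130.4, 145 and 163 CPM in blast-boldine rats and 127, 148 and 182 CPM in blast-controls. Every blast-boldine rat lay within the range of the blast-controls. *Klf9* had a log2 fold change of −0.06 (SE 0.12) with all rats and −0.07 (SE 0.11) without rat 6. The exact permutation p for *Klf9* was 0.643, and 0.576 without rat 6.

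*Hr* (chromosome 15, 45626835 to 45646313, plus strand) encodes hairless, a nuclear corepressor whose gene is induced directly by T3. In set A it measured 27.3 (rat 20), 36.5 (rat 32) and 38.9 CPM (rat 35) in blast-boldine rats against 43.6 (rat 1), 42.1 (rat 7) and 41.5 CPM (rat 9) in blast-controls. In set B it measured 35.2 (rat 12), 45.7 (rat 17) and 46.5 CPM (rat 19) in blast-boldine rats against 55.0 (rat 4) and 57.2 CPM (rat 5) in blast-controls. Within each set every blast-boldine rat was thus below every blast-control other than rat 6. Rat 6 had 0 counts of *Hr*, which allows a level of up to 47.5 CPM, a limit above the level of every blast-boldine rat.

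**Figure D2:**
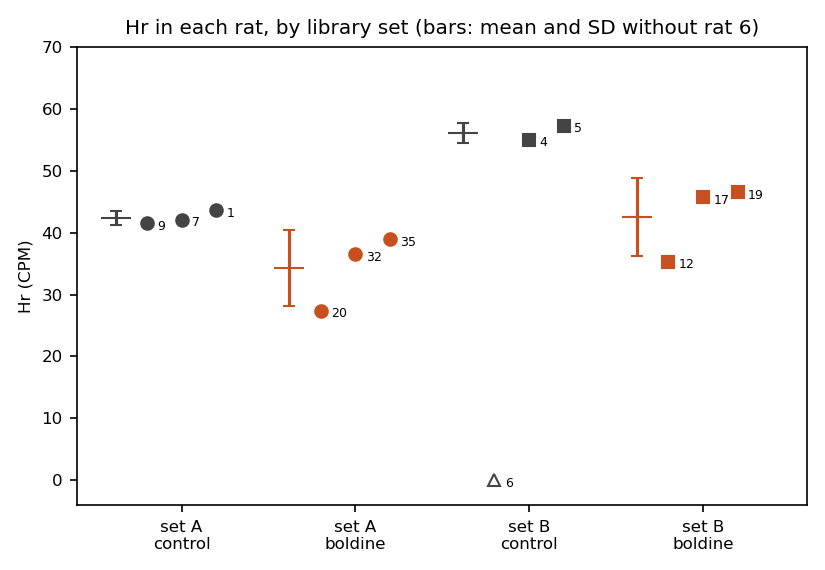
Hr in CPM in each rat, split by library set and treatment, with rat numbers beside the points and a bar for the mean and SD without rat 6. In set A the boldine rats lie at 27.3 to 38.9 CPM and the controls at 41.5 to 43.6 CPM, in set B at 35.2 to 46.5 CPM and 55.0 to 57.2 CPM, and rat 6 lies at 0.

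The mean of *Hr* without rat 6 was 47.9 ± 7.58 CPM (SD, n = 5) for controls and 38.4 ± 7.16 CPM (SD, n = 6) with boldine, and across sets the groups overlapped. Boldine rats were 20.1% lower in set A and 24.8% lower in set B, from differences of mean log2 CPM of −0.32 and −0.41. Such separation in both sets was seen in 1 of the 8 genes, and 0.694% of all 12529 genes tested lay lower in this way. The log2 fold change of *Hr* was −0.26 (SE 0.23) with all rats, −0.32 (SE 0.16) without rat 6 and −0.36 (SE 0.10) when the set was added, with a 95% interval of −0.58 to −0.13. Leaving out each of the 11 rats in turn from the last of these fits, an alternative added after seeing the data, kept it between −0.41 and −0.29.

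The tests of *Hr* did not reach significance over all genes. With the library set as covariate and without rat 6, edgeR gave *Hr* an adjusted p of 0.898 (quasi-likelihood test, Benjamini-Hochberg), at rank 46 of 12529 genes. Over the alternatives run it lay between 0.587 and 0.999997. The exact permutation test without rat 6 gave p = 0.0671, and p = 0.005 when labels were exchanged within sets, which is the smallest value that 200 assignments allow. The second value restates the separation within each set, in which 0.694% of all genes lay lower and 0.383% higher. *Hr* was 1 of 7 genes put to the permutation test, without adjustment for their number. With rat 6 included at 0 counts, the difference in mean log2 CPM was 1.11 in the opposite direction, with an exact permutation p of 0.970. The size of that difference depended on the prior count, which set the log2 CPM of *Hr* in rat 6. It was 1.11 with a prior count of 2 and 1.45 with a prior count of 0.5. The edgeR fit with all rats, rat 6 included, put *Hr* lower in boldine rats, at −0.26.

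*Nrgn* (chromosome 8, 37255465 to 37263659, minus strand) encodes neurogranin, a calmodulin-binding protein of excitatory neurons whose gene responds to T3 in some brain regions. Its lowest, median and highest levels were 408, 584 and 829.5 CPM in blast-boldine rats and 383, 609 and 1193 CPM in blast-controls. The highest value was that of rat 4, which also had the highest sum of excitatory neuron markers among the 11 deeper libraries. Every blast-boldine rat lay within the range of the controls. The log2 fold change was −0.14 (SE 0.29) with all rats and −0.13 (SE 0.32) without rat 6. The exact permutation p for *Nrgn* was 0.797, and 0.890 without rat 6.

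**Figure D3:**
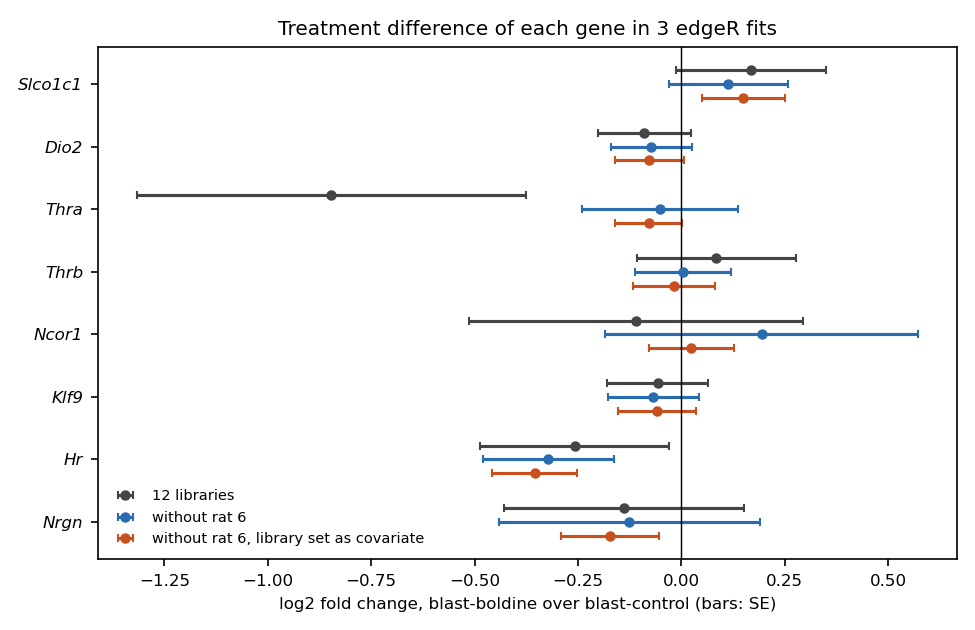
Log2 fold change of blast-boldine over blast-control for each of the 8 genes in 3 edgeR fits (all 12 libraries, without rat 6, and without rat 6 with the library set as covariate), with bars for the SE. The Thra value moves from −0.85 to −0.05 when rat 6 is left out, and Hr lies below 0 in each fit, at −0.26, −0.32 and −0.36.

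Over the whole table no gene changed with boldine at an adjusted p under 0.05 in edgeR with all 12 libraries (0% of 12325), and 132 genes (1.07%) had an unadjusted p under 0.05. DESeq2 and limma-voom also called 0 genes, with 85 and 115 past the unadjusted threshold. None of the 7 genes other than *Thra* was among these 132, and each had an adjusted p of 0.99996. Without rat 6, 0 of the 7 were past the unadjusted threshold, against 1.4% of all genes. With the library set as covariate and without rat 6 it was 1 of the 7, *Hr*, against 5.35% of all genes.

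The library sets separated 3 of the 8 genes more than treatment did. *Thra*, *Ncor1* and *Nrgn* were higher in set B in every rat, without overlap, by 1.45-fold, 2.32-fold and 1.91-fold. Such non-overlap held for 48.6% of the 12529 genes, so it was not particular to these 3. *Ncor1* measured 359.8 to 442 CPM in set A and 729 to 1071 CPM in set B without rat 6. *Nrgn* measured 383 to 521 CPM in set A and 718 to 1193 CPM in set B without rat 6. *Hr* was 1.25-fold higher in set B, and *Slco1c1* was 1.23-fold higher in set A, each with overlap. *Dio2*, *Thrb* and *Klf9* differed by 0.01, 0.11 and 0.09 on the log2 scale.

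The question whether the other genes followed *Thra* was asked within treatment and set. For each gene a slope was fitted, as the log2 change of the gene per log2 unit of *Thra*, over the 11 rats without rat 6 with terms for treatment and set. After those terms the SD of *Thra* was only 0.13 log2 units, against 0.31 over all 11 rats, which left wide errors. The slopes were −0.77 (SE 0.42) for *Slco1c1*, −0.25 (SE 0.39) for *Dio2*, −0.83 (SE 0.38) for *Thrb* and −0.38 (SE 0.47) for *Ncor1*. The target genes had slopes of −0.22 (SE 0.45) for *Klf9*, −0.12 (SE 0.50) for *Hr* and 0.60 (SE 0.56) for *Nrgn*. In the same fit 6 of 6 oligodendrocyte markers (median 0.93) and 0 of 6 choroid plexus markers (median −12.9) had a slope above 0. So did 4 of 6 astrocyte, 4 of 6 neuron, 4 of 6 microglial, 5 of 6 excitatory neuron and 1 of 6 endothelial markers. The part of cell makeup in the slopes was not tested.

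None of the 7 slopes passed edgeR's quasi-likelihood test, with adjusted p of 0.982 to 0.997, and 0% of 12528 genes were called, while 602 of them (4.81%) had an unadjusted p under 0.05. A change in proportion to *Thra* would be a slope of 1. The unadjusted 95% interval was −1.22 to 0.77 for *Klf9*, −1.21 to 0.97 for *Hr* and −0.61 to 1.82 for *Nrgn*. The interval of *Nrgn* thus included a slope of 1 and those of *Klf9* and *Hr* ended below it, but this rested on single rats. Leaving out 1 rat at a time, the interval included 1 in 3 of 11 fits for *Klf9* and in 5 of 11 for *Hr*. Without rat 20 the slopes were 0.12 for *Klf9* and 0.55 for *Hr*, with intervals of −1.04 to 1.29 and −0.51 to 1.61. The interval of *Hr* also included 1 without the treatment term (slope 0.44) and with upper quartile factors (slope −0.12). The slope of *Nrgn* was 1.21 without rat 5, 0.35 without rat 1 and 0.34 without rat 4. Whether the targets changed in proportion to *Thra* could not be settled at this size. Independent error in the *Thra* values draws such slopes toward 0. Error in the scaling of a library is shared by *Thra* and the other genes and need not do so. Neither was modelled.

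**Figure D4:**
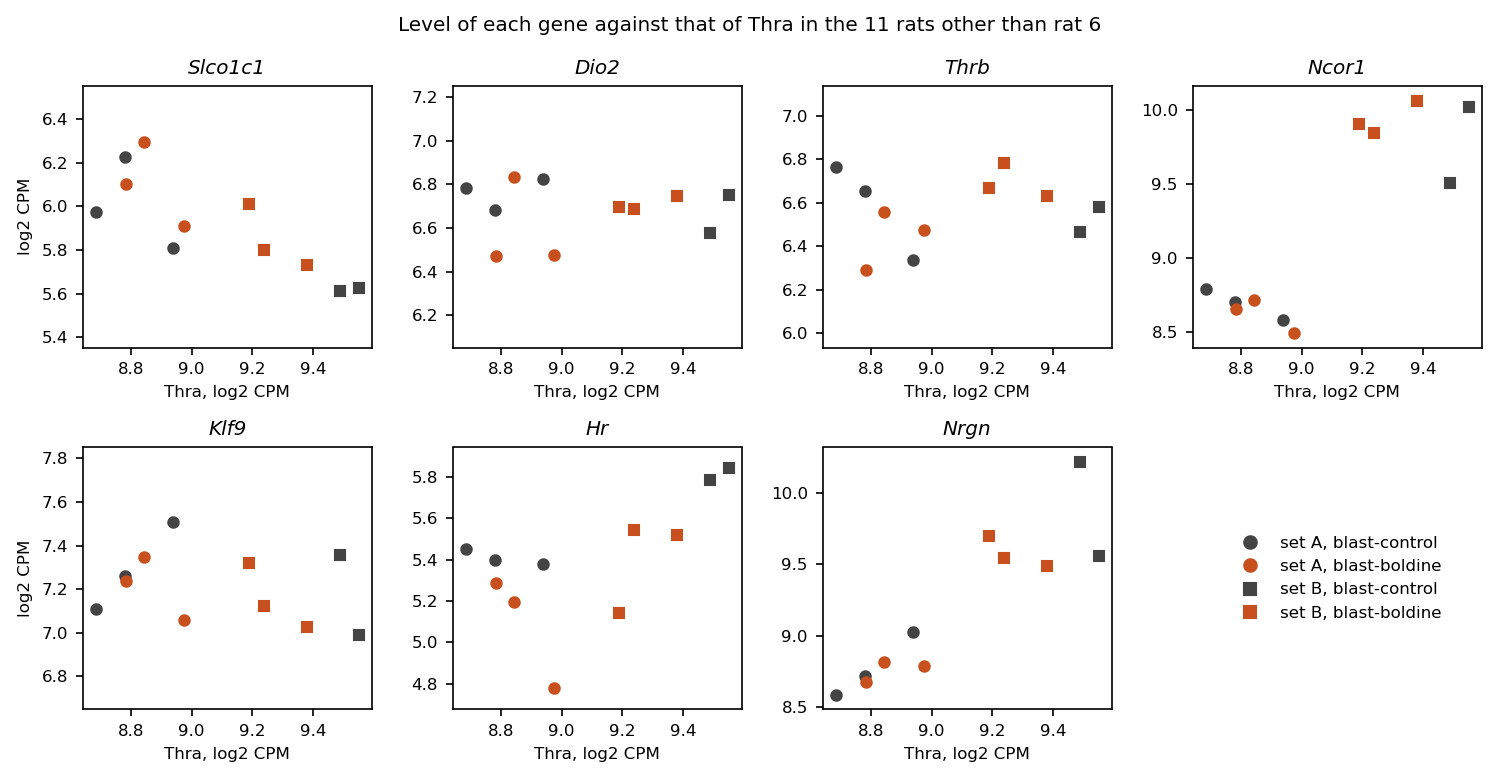
Log2 CPM of each of the 7 other genes against log2 CPM of Thra in the 11 rats other than rat 6, with circles for set A, squares for set B, grey for blast-control and orange for blast-boldine. Ncor1 and Nrgn rise with Thra across the sets, and within a set no gene has a slope that passed the test.

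Leaving out the set term changed this picture for 4 of the 7 genes. *Nrgn* (slope 1.63), *Ncor1* (1.83) and *Hr* (0.55) then rose with *Thra* and *Slco1c1* (−0.58) fell, with edgeR adjusted p of 0.00061, 0.00076, 0.030 and 0.0092. In that fit 60.1% of all genes were called, so that 4 of 7 is near the background. *Klf9* had an adjusted p above the threshold in both fits.

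The genes whose levels differed least from those of *Thra* after centring were none of these 7. By the root mean square difference of centred log2 CPM over the 11 rats, the nearest were *Map2k2* (0.07), *Mgat4b* (0.08), *Npas1* (0.09), *Eif1b* (0.09) and *Gria1* (0.09), among 12528 genes. *Hr* ranked 2621 with 0.27 and *Nrgn* 2854 with 0.27. *Thrb*, *Dio2*, *Klf9*, *Ncor1* and *Slco1c1* ranked 3881, 3918, 5124, 5926 and 7458. This measure includes the difference between the library sets. It also depends on the size of changes and not only on their direction. *Ncor1*, with a slope of 1.83 without the set term, thus ranked below *Dio2*, with a slope of 0.012.

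The wider pathway was read from 7 lists holding 52 genes, of which 51 were in the file and 45 were tested without rat 6. With all 12 libraries 0 of the listed genes had an unadjusted p under 0.05, against 1.07% of all genes. Without rat 6 it was 1 of 45, against 1.4% of all genes. That gene was *Rasd2*, a striatal small GTPase gene that responds to thyroid hormone. *Rasd2* measured 75.1 to 114 CPM in blast-boldine rats and 91.7 to 134 CPM in blast-controls without rat 6, so the groups overlapped. Its log2 fold change was −0.30 (SE 0.13) without rat 6, with an edgeR adjusted p of 0.9998.

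Among genes known to respond to T3 in brain, 16 of 17 were tested. Their median log2 fold change was −0.15 with all rats, with 2 of 16 above 0, and −0.08 without rat 6, with 3 of 16 above 0, beside 0.00 for all genes in both fits. With the set as covariate and without rat 6 the median was −0.08 beside −0.01 for all genes, and *Hr* and *Rasd2* (−0.28, SE 0.09) were the 2 of 16 past the unadjusted threshold, against 5.35% of all genes. All markers of 3 cell types lay the same way without rat 6. There 0 of 6 microglial, 0 of 6 astrocyte and 0 of 6 oligodendrocyte markers had a log2 fold change above 0, with medians of −0.22, −0.12 and −0.10. Neuron markers had a median of −0.14, with 2 of 6 above 0, and excitatory hippocampal neuron markers 0.01, with 3 of 6. Endothelial and choroid plexus markers had medians in the other direction, at 0.21 (6 of 6 above 0) and 0.23 (4 of 6). With the set added the medians of microglial, astrocyte and oligodendrocyte markers were −0.14, −0.08 and −0.09. Past the unadjusted threshold were 1 of 6 microglial markers, *Tmem119* (−0.47, SE 0.14), and 1 of 6 excitatory hippocampal neuron markers, *Wfs1* (−0.28, SE 0.09). Both were named after their values were seen, and the median of the list of *Wfs1* was −0.06. No marker of the other cell types was past it, against 5.35% of all genes. The part of cell makeup in the values of the T3 list was not tested. *Mbp*, a myelin gene and the highest of this list per length, had a log2 fold change of −0.07 (SE 0.29) with all rats and −0.19 (SE 0.18) in the fit with the set. *Hr* was also the 1 gene of the 45 that lay lower in boldine rats without overlap in both sets, and 0 of the 45 lay higher, against 0.694% and 0.383% of all genes.

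**Figure D5:**
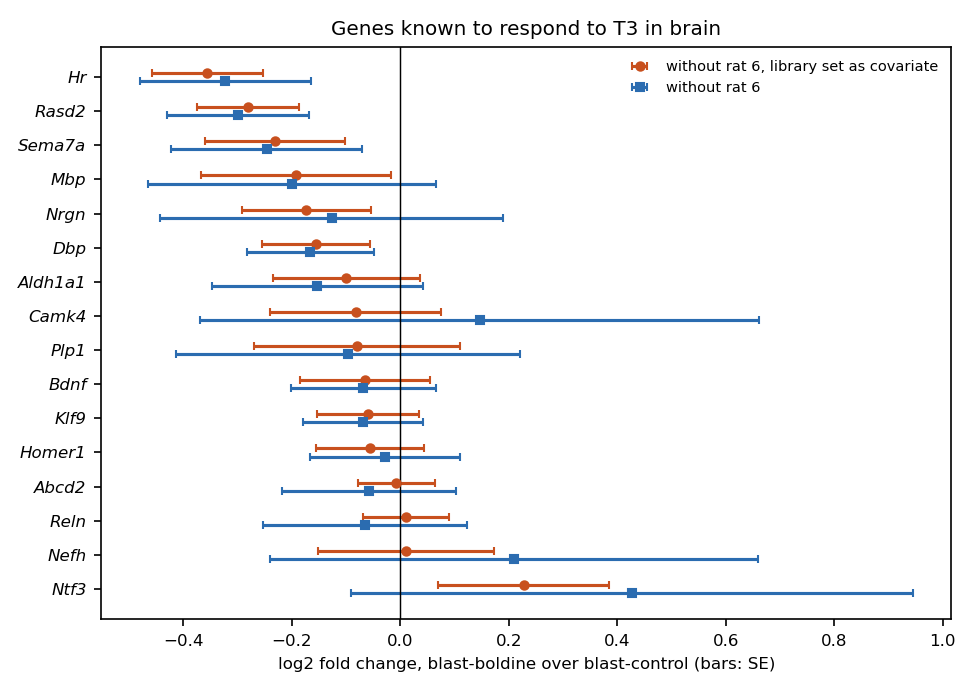
Log2 fold change of blast-boldine over blast-control for the 16 tested genes known to respond to T3 in brain, from the 11 libraries without rat 6, without and with the library set as covariate, with bars for the SE. Most values lie below 0 and within 2 SE of it, and Hr and Rasd2 lie lowest.

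The remaining lists held no gene past the unadjusted threshold in either fit without the set term. Of the 6 transporter genes 4 had a log2 fold change above 0, with a median of 0.16 with all rats and 0.13 without rat 6, and *Slco1c1* was the highest per length. Of the deiodination and hormone binding genes 3 of 5 were tested, without *Dio1* and *Dio3*, whose counts were below the filter. *Ttr*, the transthyretin gene of choroid plexus, was the highest of that list per length, at 493 ± 562 CPM per kilobase (SD, n = 11), and was high in the same 5 rats as the other choroid plexus markers. Among 5 receptor and RXR genes *Thra* was highest, among 6 corepressors *Ncor1* and among 6 tested coactivators *Ncoa1* (82.6 CPM per kilobase). Of 6 thyroid and pituitary genes 3 were tested, and the highest, *Slc5a5*, was at 1.90 CPM per kilobase.

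*Rxrg*, which encodes an RXR partner of the receptors, is named here after its values were seen. It measured 5.95 to 13.4 CPM in blast-boldine rats and 3.48 to 8.01 CPM in the deeper blast-controls, so the groups overlapped. Its log2 fold change was 0.47 (SE 0.28) with all rats and 0.45 (SE 0.27) without rat 6. With the set added it was 0.51 (SE 0.21), past the unadjusted threshold, with an edgeR adjusted p of 0.898.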

How the data were processed

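Total RNA of 12 rat brains was made into stranded libraries, 1 per rat. The authors deposited raw read counts per gene. Per the submitters' processing notes these came from STAR 2.7.11b and featureCounts of Subread 2.0.1 on mRatBN7.2, and the counting was strand-specific per the file. The file held 0 columns without a sample. From these counts CPM with TMM factors and edgeR 4.0.16 quasi-likelihood fits were computed (filterByExpr, minimum count 10, two-sided, Benjamini-Hochberg over all genes tested), without a covariate. SE is the log2 fold change divided by the root of F. Log2 CPM used a prior count of 2. Alternatives were each library left out, library set as covariate, DESeq2 1.42.0, limma-voom 3.58.1, RLE and upper quartile factors, no filter, and a prior count of 0.5. The fits were tested on simulated data. Permutation tests were exact, over 924 assignments, 462 without rat 6, and 400 or 200 within sets.

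Named genes were the 8 members, list genes with an unadjusted p under 0.05 in the fit of 12 libraries or without rat 6, the highest of each list per length, the 5 nearest to *Thra*, and *Nr1d1*. The members and lists were chosen with earlier results of these data known. Replicates are separate animals. Depth limits rat 6 in particular. Promoter windows are from RefSeq for GRCr8, and no coordinates of the 2 builds were combined. *Hr* and *Slco1c1* have no window in that table. The result of 1 listed gene is not reported here.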

Additional observations from a re-analysis of the deposited data

Results flagged for a closer look

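In 4 of 16 groups of 6 rats, 1 rat lay apart by Dixon's ratio, the gap to its nearest neighbour over the whole range of log2 CPM, which passed the 95% critical value for 6 samples. Chance flags about 1 in 20 such groups only where all values have equal, normal error. Values from 0 or 1 counts do not meet this, so the flags are a description and no test. The rat set apart was blast-control rat 6, of 74008 counts, each time. Its log2 CPM of *Hr* was set by the prior count. It was lowest for *Slco1c1* (ratio 0.724, from 1 count), for *Thrb* (0.846, from 1 count) and for *Hr* (0.948, from 0 counts). It was highest for *Thra* (0.713, from 211 counts). What sets the library apart besides its depth was not tested.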

How the results depend on the processing

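No gene was called for boldine at an adjusted p under 0.05 in any of the alternatives run, and 85 to 670 genes had an unadjusted p under 0.05. The number of the 8 genes with an unadjusted p under 0.05 rose from 0 to 1 with the library set as covariate, with that covariate and without rat 6, and in DESeq2 with all rats. The first 2 were *Hr*. The last was *Thra* (log2 fold change −0.88, beside −0.16 in limma-voom and −0.52 with the set as covariate, each with all rats). The study selected *Thra* on this contrast, so its value is a description and no test. The number of pathway genes went from 0 to 3, 4 and 1 in the same settings, while the share of all genes went from 1.07% to 3.85%, 5.35% and 0.542%. It was 1 in DESeq2 without rat 6 (1.78% of all genes), and 0 to 1 when each library was left out (0.682% to 1.71%). The number of slopes called on *Thra* rose from 0 to 4 without the set term, where 60.1% of all genes were called. Signs of differences near 0 turned. Without rat 6 and with the set, *Thrb* was −0.018 and *Ncor1* 0.024. *Ncor1* was 0.19 in DESeq2 without rat 6 and 0.079 in limma-voom, and −0.28 to 0.19 when each library was left out, against −0.094 to 0.0055 for *Klf9* and −0.25 to 0.13 for *Nrgn*. In the permutation test without rat 6 the log2 differences were 0.16 for *Ncor1* and −0.33 for *Hr*. Slopes turned to 0.039 for *Dio2*, 0.30 for *Ncor1* and −0.11 for *Nrgn* with all 12 libraries, to 0.012 for *Dio2*, 0.069 for *Thrb*, 1.83 for *Ncor1* and 0.55 for *Hr* without the set term, and to 0.44 for *Hr* without the treatment term. Leaving out each library, the slopes ranged from −0.38 to 0.079 for *Dio2*, from −0.68 to 0.12 for *Klf9*, from −0.67 to 0.55 for *Hr*, from −0.89 (without rat 5) to −0.076 (without rat 20) for *Ncor1* and from 0.34 (without rat 4) to 1.21 (without rat 5) for *Nrgn*. With the set term kept, the smallest adjusted p among the slopes of the 7 genes was 0.065 (*Thrb*, all 12 libraries, edgeR). In that fit, which includes rat 6, 180 of 12324 genes were called. Of 404 values recomputed, 366 kept their direction and side of the threshold, 27 reversed, 9 counts moved and 2 slopes passed the threshold in the same direction. The other 2 slopes that passed it without the set term, those of *Ncor1* and *Hr*, reversed. The cause of these changes was not tested. No paired analysis was possible because the rats carry no shared numbers. Depth limits every value of rat 6.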
